A study of Mus musculus with 20 samples.

Results

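Plasmacytoid dendritic cells (pDC) were a rare population in the spleens and sub-mandibular lymph nodes of mice with transgene-driven B-cell disease. In 20 droplet libraries, 70 of 97181 kept barcodes (0.0720%) passed the pDC gate. A barcode was kept when it held at least 1500 unique molecular identifiers (UMIs, each a captured transcript) from at least 200 genes, with no more than 10% of UMIs from mitochondrial genes. The gate asked for 2 or more UMIs of Siglech and 1 or more of Bst2, allowed at most 1 UMI of Cd79a and Cd79b together, and allowed none of Cd3d, Cd3e or Cd3g. Siglech, Bst2, Cd79 and Cd3 levels therefore describe how the cells were chosen and are not findings. B cells of the same libraries, defined by 3 or more UMIs of Cd79a and Cd79b, numbered 49502 and served as the comparison class.

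pDC are a dendritic lineage with secretory, lymphocyte-like morphology that senses viral and self nucleic acids through endosomal Toll-like receptors and can release large amounts of type I interferon. Their identity depends on the E protein TCF4 (E2-2) together with IRF8, SPIB, BCL11A, RUNX2 and ZEB2, and their surface carries SIGLEC-H, which signals through the adaptor DAP12 (Tyrobp), and BST2 (tetherin). They leave the bone marrow for blood, spleen and lymph nodes, where they are normally scarce.

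The study compared mice, all labelled C57BL/6N, carrying human PRMT5, human TCL1 or both, each cDNA driven in B cells by an immunoglobulin promoter and the IgH-Eµ enhancer. Tissue was taken when disease reached early removal criteria, and no transgene-free animals were among the libraries. The 13 mice gave 13 spleens, of which 5 were Eµ-PRMT5, 4 Eµ-TCL1 and the remaining 4 from mice with both transgenes (Eµ-PRMT5/TCL1). Lymph nodes came from 3 mice of the Eµ-TCL1 line and 4 of the double transgenic line, and these 7 mice gave both tissues. Ages were not given in the labels, and the name of 1 Eµ-PRMT5/TCL1 mouse (lymph node 2 and spleen 1) ends in RT, which the labels do not explain.

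Kept barcodes ranged from 784 to 8631 per library and total UMIs from 9348094 to 72440894. B cells made up 10.6 to 93.8% and T cells 2.78 to 82.1% of kept barcodes, so the pDC share of a library moves with the size of the B-cell and T-cell compartments. Kept barcodes were shared between the 190 pairs of libraries at a median of 0.991 times the chance rate (0.401 to 1.82). Of the 70 pDC, 10 had a barcode that was also kept in another library, where 8.75 were expected by chance, and 0 had a barcode that was a pDC in another library.

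The cells carried the genes that define pDC and that the gate did not ask for. Of the 70 barcodes, 64 had a UMI of Tcf4, 64 of Irf8, 64 of Ly6d, 62 of Cox6a2 and 58 of Ccr9. Pacsin1, a membrane-bending adaptor, was seen in 53 cells, Spib in 45, Runx2 in 41 and the kallikrein protease gene Klk1 in 25. Tcf4, Irf8, Ly6d and Spib were also seen in 55.8 to 86.5% of B cells, whereas Ccr9 was seen in 7.21%, Cox6a2 in 3.58% and Klk1 in 0.719% of them. Ly6c2, another of the markers counted below, was seen in 55 pDC, in 65.4% of T cells and in 69.4% of the other barcodes, those with at most 1 Cd79 UMI and none of Cd3 or Siglech. Siglech itself was found in 131 of 49502 B cells (0.265%). Barcodes below the cell range, which hold free RNA, carried 0 to 3.16 CPM (UMIs of a gene per 1000000 UMIs) of Siglech per library and 48.0 to 171 CPM of Bst2.

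Among themselves the pDC were not uniform. Each cell was scored for 10 further markers (Tcf4, Irf8, Ccr9, Ly6d, Ly6c2, Klk1, Cox6a2, Runx2, Spib and Pacsin1), and the median cell had 8 of them. At least 5 of the 10 were present in 64 cells and at least 7 in 52. UMIs per cell ran from 1638 to 32808 with a median of 6538.5, Siglech from 2 to 31 UMIs with a median of 10, and Bst2 from 5 to 59 with a median of 24. The plot of marker number against UMIs shows most cells in the upper band and a small group below it.

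**Figure D1:**
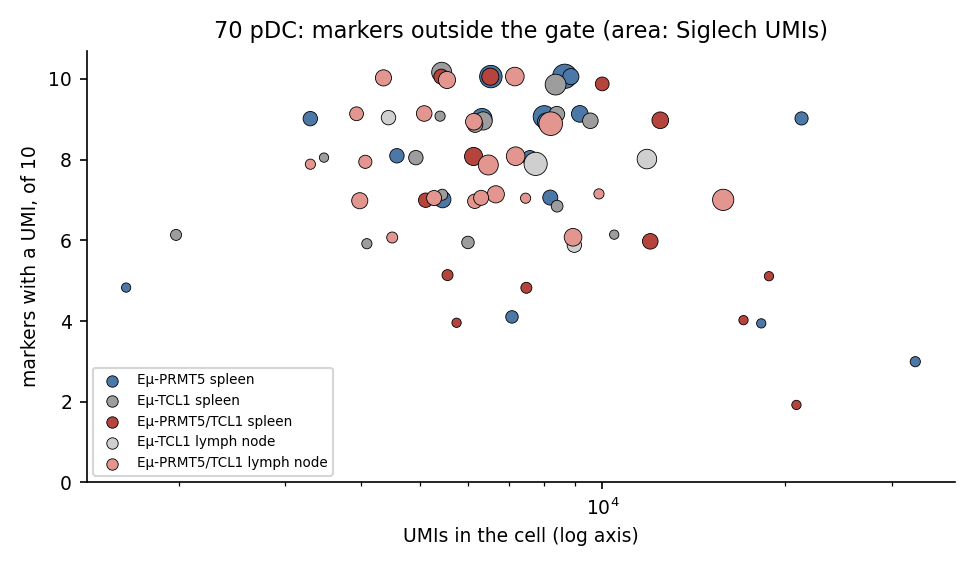
Each point is 1 of the 70 pDC, placed by its UMIs (log scale, x axis) and by how many of 10 pDC markers outside the gate had a UMI (y axis), coloured by group, with an area that grows with the Siglech UMIs and a small vertical scatter so that points do not hide each other. Of the 70 cells, 64 sit at 5 to 10 markers, with 1638 to 21299 UMIs, and 6 sit at 4 or fewer, among them the cell with the most UMIs (32808).

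The 6 cells with 4 or fewer markers held 5746 to 32808 UMIs and had no UMI of Klk1 or Spib. The cell with the most UMIs, in Eµ-PRMT5 spleen 3, had 213 UMIs of the mesenchymal filament gene Vim, all 17 cell-cycle genes of the list and only 3 Siglech UMIs. Another, in Eµ-PRMT5/TCL1 spleen 3, had 20889 UMIs, 16 cell-cycle genes and 2 of the 10 markers. That cell was the only pDC of its library, so the pDC label of that library rests on it. Both pDC of Eµ-PRMT5 spleen 3 were also among the 6, with 4 and 3 markers and no UMI of Irf8 or Ccr9. The pDC label of that library therefore rests on such cells too. Cells at the edge of the gate showed the same gradient: the 62 cells with 3 or more Siglech UMIs had a median of 8 markers, the 8 with exactly 2 had 4.5, and the 14 barcodes left just outside with exactly 1 had 3.5. Ccr9 was present in 54 of the 62, 4 of the 8 and 2 of the 14.

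Markers of other lineages differed in how widely they were spread. A UMI of the monocyte and macrophage list was found in 62 of the 70 cells, of the conventional dendritic cell list in 60, of the T-cell list in 57 and of the plasma-cell list in 62, while 22 cells had one of the natural killer list and 5 one of the erythroid list. No B-cell marker UMI (10 genes, including Ms4a1 and Pax5) was found in 59 cells, and Ebf1, Fcmr and Cd22 had 0 UMIs in all 70. A neutrophil marker UMI was found in 18 cells, and 3 cells held 20 or more. Their UMIs and those of Lyz2 lay mostly in single cells. A cell of Eµ-TCL1 spleen 3 had 720 neutrophil UMIs beside all 10 pDC markers, among them 361 of S100a9 and 212 of S100a8. Another cell of the same library had 370, including 144 of the granule protease gene Elane and 46 of Mpo. A cell of Eµ-PRMT5 spleen 1 with 21299 UMIs had 247 UMIs of the macrophage lysozyme gene Lyz2. The doublet caller Scrublet removed none of the 70 at its automatic thresholds, which called under 0.5% of barcodes in most libraries. When barcodes with scores at or above the score at the expected doublet rank were removed, ties included, 65 pDC remained, and the cells with 720 neutrophil UMIs and 247 Lyz2 UMIs were among those removed while the cell with 370 was not.

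TCF4 binds E-box motifs and interferon-responsive factors bind repeated GAAA motifs, so promoters of pDC genes were searched for these letters. Of 12 promoters read for 11 genes, 7 held none of the motifs searched, namely those of Pacsin1, Runx2, Lair1, Upb1, Cd209d and Rpgrip1 and 1 of 2 of Irf8. The 4 shown were picked after the search as examples that hold a match. The sequences are the 250 bases before the annotated start, 5′ to 3′ on the strand of the gene, from RefSeq on GRCm38.p6, at chr7:55767934-55768183 (plus strand) for Siglech, chr9:123766961-123767210 (plus strand) for Ccr9, chr7:44225110-44225359 (plus strand) for Klk1 and chr8:71537473-71537722 (minus strand) for Bst2. Capitals mark the E-box CACCTG or its reverse complement CAGGTG and, in Bst2, 2 overlapping matches to a pair of GAAA copies with any 2 bases between them.
Siglech: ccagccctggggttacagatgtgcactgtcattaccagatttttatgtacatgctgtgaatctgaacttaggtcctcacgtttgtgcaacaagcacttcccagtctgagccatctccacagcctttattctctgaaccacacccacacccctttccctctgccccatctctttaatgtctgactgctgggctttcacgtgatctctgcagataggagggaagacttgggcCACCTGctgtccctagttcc
Ccr9: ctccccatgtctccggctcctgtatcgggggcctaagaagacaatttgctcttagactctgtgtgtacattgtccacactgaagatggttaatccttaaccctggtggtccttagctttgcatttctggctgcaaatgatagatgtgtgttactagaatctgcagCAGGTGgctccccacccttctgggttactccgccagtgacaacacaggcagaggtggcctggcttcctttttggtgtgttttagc
Klk1: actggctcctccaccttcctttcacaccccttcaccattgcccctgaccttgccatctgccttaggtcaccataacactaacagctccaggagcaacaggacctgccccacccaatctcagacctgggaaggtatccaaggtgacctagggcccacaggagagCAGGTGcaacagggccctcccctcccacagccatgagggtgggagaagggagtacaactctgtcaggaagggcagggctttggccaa
Bst2: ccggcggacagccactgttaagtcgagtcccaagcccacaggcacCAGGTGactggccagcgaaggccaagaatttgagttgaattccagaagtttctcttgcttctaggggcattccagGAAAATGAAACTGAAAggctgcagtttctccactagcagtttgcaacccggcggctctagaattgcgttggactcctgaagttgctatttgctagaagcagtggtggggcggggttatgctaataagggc
The E-box began 20 bases before the start in Siglech, 85 in Ccr9, 87 in Klk1 and 205 in Bst2. The matches to the GAAA pair in Bst2 began 130 and 124 bases before the start.

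Both strands of all RefSeq promoters of this length were searched for the same letters. A gene was counted once, when any of its promoters held the motif. CACCTG or CAGGTG was found for 19.4% of 27025 genes with a promoter. Of the 43 genes of the pDC identity and transcription factor lists, which do not hold Siglech and Bst2, 34 had a promoter and 9 of these (26.5%) held it. CAGCTG, the other E-box searched, was found for 14.7% of all genes and for 7 of the 34. The GAAA pair was found for 3.46% of all genes, for 1 of those 34 and for 17 of 33 genes with a promoter (51.5%) of the interferon-stimulated list. These are matches of letters and not binding sites.

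Barcodes passing the pDC gate were found in 16 of the 20 libraries, and their number per library was small. In Eµ-PRMT5 spleen 3 and Eµ-PRMT5/TCL1 spleen 3 all of them were cells with 4 or fewer markers. Eµ-PRMT5 spleens 1 to 5 held 13, 0, 2, 1 and 1 pDC. Eµ-TCL1 spleens 1 to 4 held 7, 1, 6 and 1. Eµ-PRMT5/TCL1 spleens 1 to 4 held 5, 6, 1 and 1. In lymph nodes, the counts were 3, 0 and 1 in Eµ-TCL1 nodes 1 to 3 and 0, 19, 2 and 0 in Eµ-PRMT5/TCL1 nodes 1 to 4. A single library gave the larger part of the pDC of its group in the Eµ-PRMT5 spleens, in the Eµ-TCL1 nodes and, more so, in the Eµ-PRMT5/TCL1 nodes.

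As a share of kept barcodes, Eµ-PRMT5 spleen 1 reached 0.280% (95% Wilson interval 0.164 to 0.479%) and Eµ-PRMT5/TCL1 lymph node 2 reached 0.406% (0.260 to 0.633%). The other libraries with at least 5 pDC lay at 0.0838 to 0.162%. Where no pDC was found, a limit of 3 counts corresponds to a share of 0.296% in Eµ-PRMT5 spleen 2, 0.0897% in Eµ-TCL1 node 2, 0.383% in Eµ-PRMT5/TCL1 node 1 and 0.0348% in Eµ-PRMT5/TCL1 node 4, and the upper Wilson bounds of the same libraries were 0.377, 0.115, 0.488 and 0.0445%. The limit of node 4 lies below the interval of node 2 of the same group, while that of node 1, with 784 kept barcodes, does not. Intervals and limits cover counting error only.

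Genotype groups of spleens did not separate by pDC share. The mean share was 0.0714% ± 0.117 (SD, n = 5) in Eµ-PRMT5, 0.0656% ± 0.0574 (n = 4) in Eµ-TCL1 and 0.0713% ± 0.0673 (n = 4) in Eµ-PRMT5/TCL1 spleens, and the ranges overlapped. Eµ-PRMT5 exceeded Eµ-TCL1 spleens by 0.00583 percentage points (exact permutation test, two-sided, p = 0.937). Eµ-PRMT5/TCL1 spleens exceeded Eµ-TCL1 spleens by 0.00574 points (exact permutation p = 0.857) and differed from Eµ-PRMT5 spleens by -9.36e-05 points (exact permutation p = 0.992). Lymph nodes averaged 0.0313% ± 0.0376 (n = 3) in Eµ-TCL1 and 0.110% ± 0.198 (n = 4) in Eµ-PRMT5/TCL1 mice, a difference of 0.0789 points (exact permutation p = 0.886). Without Eµ-PRMT5/TCL1 node 2 this difference was -0.0195 points, and without Eµ-PRMT5 spleen 1 the difference of Eµ-PRMT5 from Eµ-TCL1 spleens was -0.0463. The smallest p that can be reached is 0.00794 with groups of 5 and 4 libraries and 0.0286 with groups of 4 and 4 or of 4 and 3, and after Benjamini-Hochberg adjustment over the 5 share comparisons every p was 0.992.

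**Figure D2:**
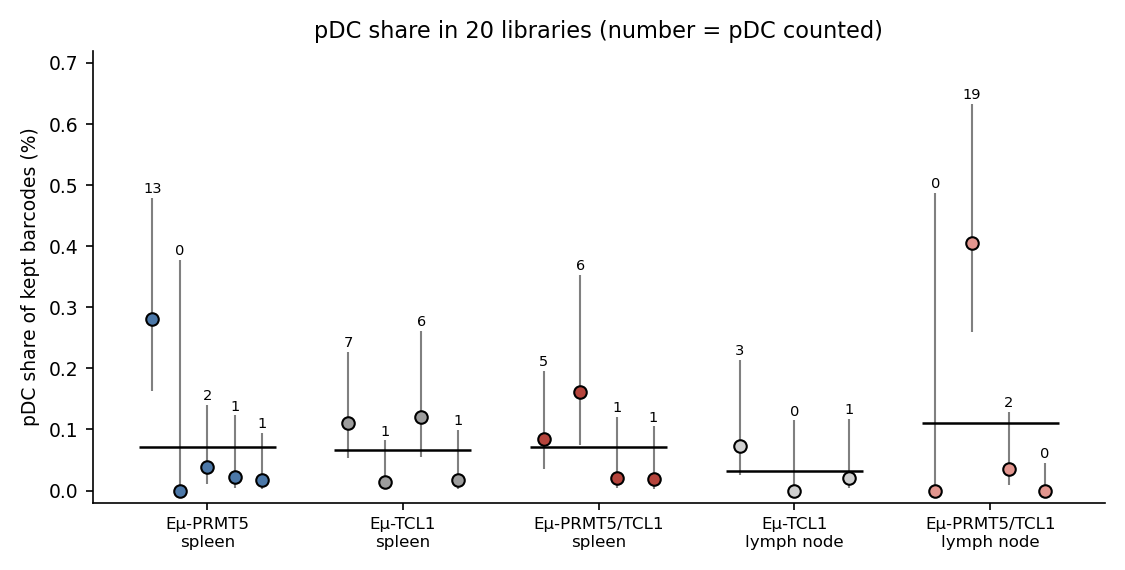
pDC as a percent of kept barcodes (y axis) for each library (points, with 95% Wilson intervals), by tissue and genotype (x axis), with a bar at the group mean. The 5 groups overlap, and Eµ-PRMT5 spleen 1 (0.280%) and Eµ-PRMT5/TCL1 lymph node 2 (0.406%) stand above the rest of their groups.

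Within the 7 mice that gave both tissues, the node exceeded the spleen in 3 (mean 0.0764% in nodes and 0.0611% in spleens, exact sign-flip permutation test over mice, two-sided, p = 0.938, smallest possible p 0.0156). The largest gap was in the mouse of Eµ-PRMT5/TCL1 node 2, with 0.406% in the node and 0.0838% in the spleen. The next largest went the other way, with 0% in Eµ-PRMT5/TCL1 node 4 and 0.162% in the spleen of that mouse. Without the mouse of node 2 the mean difference was -0.0358 points.

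Because expansion of B cells lowers the share of every other cell, pDC were also counted among the barcodes within the gate's limits on B and T receptor genes (at most 1 Cd79 UMI and no Cd3 UMI). By this measure they were 13.3% of 143 such barcodes in Eµ-PRMT5/TCL1 node 2, 7.32% in Eµ-TCL1 node 1 and 4.63% in Eµ-PRMT5/TCL1 spleen 1. Eµ-PRMT5 spleen 1 followed with 2.09%. The 2 libraries of the mouse labelled RT were thus the highest of their groups on this scale, whereas its spleen lay below spleen 2 on the first. In a droplet sample, fewer pDC and more of the other cells cannot be told apart.

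To describe what the pDC expressed, the UMIs of the pDC and of the B cells were each summed within the 6 libraries that had at least 5 pDC (56 cells), as CPM of that class. These were Eµ-PRMT5 spleen 1, Eµ-TCL1 spleens 1 and 3, Eµ-PRMT5/TCL1 spleens 1 and 2 and Eµ-PRMT5/TCL1 lymph node 2, and per-library values below follow this order. Values are means over the 6 libraries. Ratios are the log2 of the ratio of these means after 5 CPM were added to each, which understates the change of low genes. A single library with a high level can weigh heavily in such a ratio. Of 6656 genes with a mean of 20 CPM or more in either class, 791 (11.9%) were at least 2-fold higher in pDC and higher in 3 of 4 libraries or more, and 583 (8.76%) were lower by the same rule, with a median log2 ratio of 0.21. No test accompanies this contrast, because the gate chose the cells. Median UMIs per cell were 5746 to 12223 in pDC and 4301 to 10105 in B cells of these libraries.

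The genes that set pDC furthest apart from B cells included surface receptors, secreted proteins and cathepsins. Ccr9, the receptor for the gut chemokine CCL25, had 1445 CPM in pDC and 2.68 in B cells (log2 ratio 7.56). Cox6a2, a muscle-type subunit of cytochrome c oxidase, had 1748 ± 138 CPM (SD, n = 6) against 12.3 (6.66). Relative to its mean, it varied least across libraries among the leading genes. Cd7, a lymphoid surface glycoprotein, had 1233 against 10.2 CPM (6.34). Klk1 followed at 6.11, although it had no UMI in 1 of the 6 libraries. Then came AC140186.1 (5.70), the secreted TGF-β family antagonist Lefty1 (5.64), the lysosomal protease Ctsl (5.61), the phospholipid transfer protein Pltp (5.58), Smim5 (5.53) and the lectin-like receptor Klrd1 (5.30). The list of 15 ended with Csf2rb2, a β chain of the IL-3 receptor (5.24), the adaptor Sla2 (5.14), the inhibitory collagen receptor Lair1 (4.94), Tbc1d8 (4.93) and Paqr5 (4.91).

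At the other end stood genes of B cells and of antibody secretion. Jchain, which joins IgM and IgA multimers, had 3.97 CPM in pDC and 1804 in B cells. Apoe had 8.98 against 1246 CPM and Ms4a1 (CD20) 1.35 against 508. Cd83 had 0 against 610 CPM, and Fcmr, Ikzf3, Ebf1 and Camk2n1 also had 0 UMIs in the pDC of these libraries. AC133103.1 had 7.48 against 712 CPM.

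**Figure D3:**
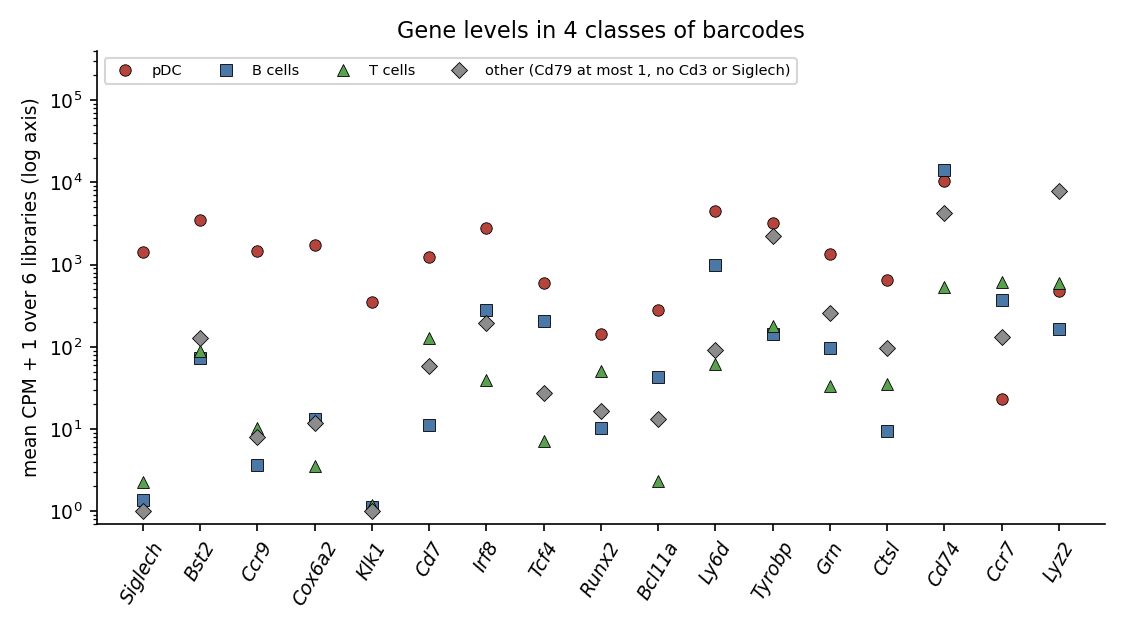
Mean CPM over the 6 libraries, with 1 added (y axis, log scale), of 17 named genes (x axis) in pDC, B cells, T cells and the other barcodes, which had at most 1 Cd79 UMI and by definition no Cd3 or Siglech UMI. From Siglech to Ctsl the pDC point is the highest of the 4 classes, Cd74 is close in pDC and B cells, and Ccr7 and Lyz2 are highest in other classes.

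Of the 30 genes of the pDC identity list, 28 passed the level filter, and 23 of these were higher and 0 lower in pDC (median log2 ratio 3.57). Over all genes measured, 11.9% were higher and 8.76% lower. Atp1b1, a sodium pump subunit, had 556 against 21.1 CPM, Grn, the lysosomal glycoprotein progranulin, 1326 against 96.2, and Ly6d 4441 against 1001. Plac8 had 1691 against 1107 CPM and Dnajc7 511 against 432, below the 2-fold limit. Lag3, an inhibitory receptor for MHC class II, was found in 45 cells but was higher in only 4 of 6 libraries. The lists were drawn up with knowledge of pDC, so their direction describes the cells and adds no independent evidence of it.

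Of the 13 transcription factors, 8 were higher and 1 lower (median 1.49), beside 11.9% higher and 8.76% lower over all genes measured. Irf8 had 2784 CPM in pDC and 276 in B cells, and Tcf4 588 against 206. Bcl11a, a zinc finger factor of lymphoid and pDC development, had 280 against 41.4, Runx2 141 against 9.36, and Zeb2 246 against 77.1 CPM. Spib and Mef2c, which B cells also use, had ratios of 0.73 and 0.38. Ets1, a factor of lymphocytes, was the lower member, with 18.4 against 173 CPM.

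The receptors that signal through immunoreceptor tyrosine motifs formed the second group that stood well above B cells, with 10 of 15 measured members higher and 0 lower (median 2.59). The shares over all genes measured were 11.9% higher and 8.76% lower. Tyrobp, which encodes DAP12, the adaptor of SIGLEC-H, was found in all 70 cells, with 3172 CPM against 144. Fcer1g, the shared γ chain of Fc receptors, had 997 against 129 CPM. Klra17, the inhibitory receptor Ly49Q, had 91.9 against 0.112 CPM, and Clec12a, an inhibitory lectin, 164 against 4.48. The kinases Syk (177 against 188 CPM) and Lyn (254 against 262) were near equal in level in both classes.

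The machinery of nucleic acid sensing was measured through 20 genes. Of these, 4 were higher (beside 11.9% of all genes measured) and 0 lower, with a median of 0.68, and the summed list was 2731 to 6611 CPM in pDC and 1541 to 2255 in B cells, without overlap. The 4 were Irf7, the factor that drives interferon transcription (253 against 31.9 CPM), Pld4, an endosomal nuclease (740 against 166), and the cathepsins Ctsb (1642 against 213) and Ctsl (646 against 8.37). Unc93b1, the chaperone of endosomal Toll-like receptors, had 680 against 367 CPM. Tlr7 was found in 17 cells and Tlr9 in 19, with 36.6 against 6.54 and 46.7 against 22.6 CPM, and Tlr7 was higher in pDC in 3 of 6 libraries.

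Interferon transcripts themselves were almost absent. Of 20 type I and type III interferon genes, 19 had 0 UMIs in the 70 pDC, and Ifnl2 had 1 UMI in 1 cell. With 563046 UMIs over all pDC, a count of 0 allows up to 5.33 CPM. Of the interferon-stimulated list, 27 of 43 genes in the files were measured, 6 higher and 4 lower (median 0.42), beside 11.9% higher, 8.76% lower and a median of 0.21 over all genes measured. The higher members were Ly6a (1410 against 509.5 CPM), Ifi27l2a, Ifi47, Stat2, Oasl2 and Slfn8, and the lower members were Isg20, Zbp1, Ddx58 and Phf11b. Isg15, an interferon-induced ubiquitin-like protein, was found in 10 cells (85.7 against 62.9 CPM).

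Class II genes were expressed strongly in pDC, and 4 genes of T-cell ligands were lower than in B cells. Cd74, the invariant chain, had 10277 CPM in pDC and 14336 in B cells, H2-Eb1 1544 against 2584, H2-Aa 2768 against 3115 and H2-Ab1 1730 against 1835. Cd74 and H2-Eb1 were lower in pDC in 5 of 6 libraries, H2-Aa and H2-Ab1 in 3 of 6. H2-DMa, a subunit of the peptide-loading molecule H2-M, had 417 against 287 CPM and its pDC level lay above the B-cell level in 4 of 6 libraries. Of 14 members, beside 11.9% higher and 8.76% lower over all genes measured, 1 was higher (H2-DMb1, 272 against 72.9 CPM) and 6 were lower (median -0.77). The lower ones were the peptide-editing inhibitor H2-Ob (7.53 against 210 CPM), H2-DMb2 (91.8 against 491) and the T-cell ligands Cd86, Cd80, Cd40 and Cd274. Cd80 had 0 UMIs in the 70 cells, and Cd86 was found in 7.

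Homing receptors differed in both directions. Of 14 measured, 6 were higher and 3 lower (median 0.91), beside 11.9% higher and 8.76% lower over all genes measured. Besides Ccr9, the higher ones included Selplg, the selectin ligand PSGL-1 (595 to 1489 CPM across the 6 libraries, and 47.1 to 163 in B cells), Ccr2 (64.1 against 9.28), Itgb2 and S1pr4. Ccr7, which guides cells to lymph nodes, was lower (21.9 against 368 CPM), and S1pr1 and Cxcr5 had 0 UMIs in all 70 pDC.

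Called secretory and stress genes differed from B cells in opposite directions. Over all genes measured, 11.9% were higher in pDC and 8.76% lower, with a median log2 ratio of 0.21. Of 20 genes of the endoplasmic reticulum, 5 were higher and 0 lower (median 0.78), namely Xbp1, the factor that expands the secretory pathway (711 against 318 CPM), Sec61b, Pdia6, Canx and Dnajc3. The summed level of the 20 genes overlapped, at 6803 to 10553 CPM in pDC and 3598 to 12363 in B cells, and in Eµ-TCL1 spleen 1 it was higher in the B cells. Of 19 measured immediate-early and heat-shock genes, 0 were higher and 13 lower (median -1.99). Among the stress genes, Fos had 4.16 against 250 CPM, Jund 74.2 against 583, Nr4a1 33.9 against 473, and Egr1 had 0 against 132. The summed level of the stress list was 2117 to 3110 CPM in the pDC of the 6 libraries and 3232 to 14234 in the B cells, so the classes did not overlap. Of 9 survival genes, 4 were lower, namely Bcl2 (21.7 against 96.8 CPM), Mcl1 (105 against 226), Bcl2a1b and Bcl2a1d, and 0 were higher.

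Cell-cycle transcripts were carried by a minority. At least 5 of the 17 cycle genes were present in 15 of the 70 cells, and Mki67 in 12. Over the list 3 genes were higher than in B cells (Top2a, Birc5 and Stmn1) and 1 was lower (Mcm6), with a median of 0.76, beside 11.9% higher, 8.76% lower and a median of 0.21 over all genes measured. The 15 cells had 3473 to 32808 UMIs, and 5 of them were among the 6 with the fewest pDC markers.

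**Figure D4:**
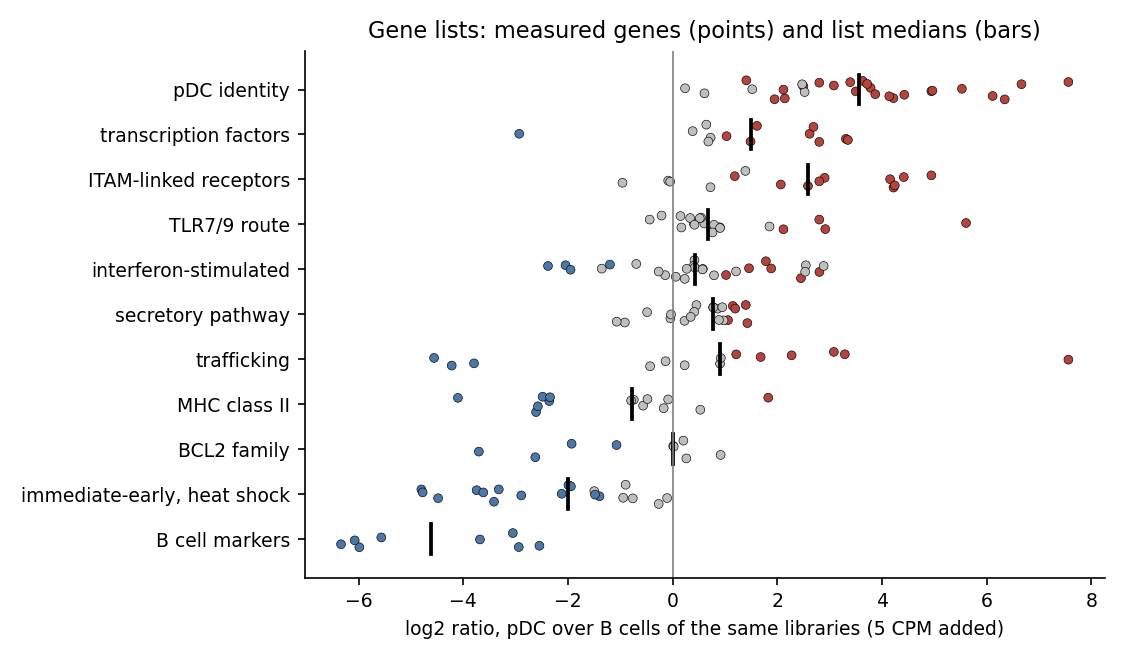
Log2 ratio of pDC to B cells (x axis) for the measured genes of each list (rows), with a bar at the list's median. The medians of the identity list (3.57) and the receptor list (2.59) lie to the right. Those of the class II list, which also holds genes of T-cell ligands (-0.77), and of the immediate-early and heat-shock list (-1.99) lie to the left. The median of the sensing list (0.68) lies between, beside 0.21 over all genes.

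Genes usually read as T-cell, natural killer or conventional dendritic cell markers were not uniformly absent. Of 7 measured T-cell markers 4 were higher in pDC than in B cells (Il7r, Cd8a, Cd8b1 and Cd4) and 3 were lower (Lck, Cd5 and Trbc2). Beside these and the lists below, 11.9% of all genes measured were higher and 8.76% lower. Il7r was found in 42 cells (210 against 8.47 CPM), Cd8a in 24 (135 against 7.73), Cd4 in 19 (62.8 against 6.15) and Dntt, the terminal transferase of lymphoid progenitors, in 25, while Rag1 and Rag2 had 0 UMIs. Lck was found in 1 cell and Trac in 1. Of 5 measured conventional dendritic cell markers, 3 were higher in pDC, namely Itgax (120 against 1.15 CPM), Clec10a (73.9 against 0.224) and Clec9a (59.6 against 0.0934), and 1 was lower, Wdfy4 (19.1 against 56.6), while Xcr1 and Ccl22 had 0 UMIs in the 70 cells. Of 2 measured natural killer markers, 0 were higher in pDC and 1 was lower (median 0.56). Of the 8 genes of that list 6 had 0 UMIs in the 70 cells, among them Ncr1, Klrb1c, Gzma and Eomes. The list as a whole had 49 UMIs, in 22 cells. Of the plasma-cell list 5 of 6 measured genes were lower in pDC than in B cells, and of the erythroid list 2 of 2. The B-cell class itself held 1378 to 9040 CPM of the plasma-cell list. A lower level in pDC therefore does not show whether they carry raised plasma-cell transcripts.

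Prmt5, the mouse counterpart of a transgene, was sparse in pDC, with 10 UMIs in 9 of the 70 cells. Its level was 16.1 CPM in pDC and 22.1 in B cells (17.5 to 30.2 across the 6 libraries), higher in pDC in 3 of 6. Its partners Wdr77, Clns1a and Riok1 had log2 ratios of -0.22, 0.05 and 0.14. The human transgenes were not measured here.

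Identity genes also varied between the pDC of single libraries. Siglech, which the gate used, had 1589, 1210, 1669, 1311, 649 and 2012 CPM in the 6 libraries in the order above. Ccr9 had 1589, 1326, 1001, 2225, 500.2 and 2028 CPM, and Irf8 had 2918, 4025, 2503, 3506, 1027 and 2726. Eµ-PRMT5/TCL1 spleen 2 was the lowest library for Ccr9 and Irf8, and it had the highest median UMIs per pDC (12223). In that library 2 of 6 cells had exactly 2 Siglech UMIs. Klk1 ran from 0 CPM in that library through 91.5, 116, 404 and 657 to 834 in Eµ-TCL1 spleen 3.

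The pDC of Eµ-PRMT5/TCL1 lymph node 2 (19 cells) lay above or below those of all 5 spleens in several genes. Ly6d had 2842, 2559, 5173, 4451 and 4285 CPM in the spleens and 7333 in the node. Ly6c2 had 1085, 1536, 1859, 1402 and 446 CPM in the spleens and 349 in the node, which was the lowest but close to the 446 of Eµ-PRMT5/TCL1 spleen 2. Cd8a had 9, 0, 6, 3 and 2 UMIs (0 to 143 CPM) in the spleens and 58 UMIs (470 CPM) in the node, where 14 of 19 cells had a UMI.

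Class II transcripts were also highest in that node. H2-Aa had 2397, 2466, 1526, 2408 and 2569 CPM in the 5 spleens and 5240 in the node. Cd74 had 9435, 10656, 7748, 8658 and 8625 CPM in the spleens and 16540 in the node. The summed class II list was 11729 to 17567 CPM in the spleens' pDC and 29072 in the node's, while the B cells of that node had 20672 and B cells of the 6 libraries 16973 to 33026. The node is 1 library of 1 mouse, so tissue, animal and library cannot be told apart, and in the test of node against spleen below Ly6d, Ly6c2, H2-Aa and Cd74 were among the genes tested and were not called. Cd8a was not among the genes tested there.

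**Figure D5:**
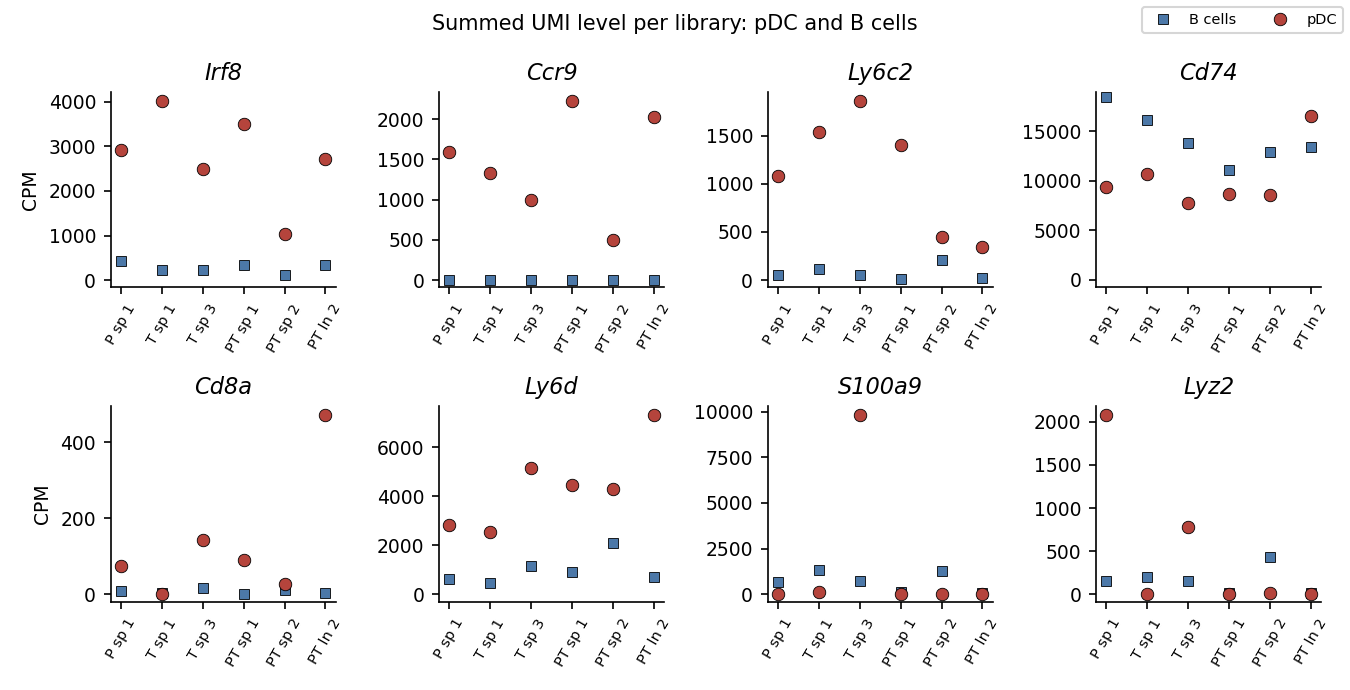
CPM (y axis, linear) of 8 genes, 1 panel each, in the pDC (circles) and B cells (squares) of the 6 libraries with at least 5 pDC (x axis, where P stands for Eµ-PRMT5, T for Eµ-TCL1, PT for mice with both transgenes, sp for spleen and ln for lymph node). Eµ-PRMT5/TCL1 lymph node 2 is highest for Cd74 (16540), Cd8a (470) and Ly6d (7333), Eµ-PRMT5/TCL1 spleen 2 is lowest for Irf8 and Ccr9, and single libraries carry most of the pDC UMIs of S100a9 (411 in T sp 3) and Lyz2 (247 in P sp 1).

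The effect of genotype on the pDC themselves was tested in spleen with edgeR's quasi-likelihood test on UMIs summed per library, over libraries with at least 5 pDC. That left 5 spleens (1 of Eµ-PRMT5 mice, 2 of Eµ-TCL1 mice, 2 of Eµ-PRMT5/TCL1 mice) and 1085 genes, and the 3 comparisons share their libraries. The lone Eµ-PRMT5 spleen is assumed to vary like the other groups. Of the genes on the pDC lists of identity, transcription factors, sensing, receptors, class II, homing, secretion, survival, stress and cell cycle, 0 passed an adjusted p of 0.05 in any comparison.

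For Eµ-PRMT5 relative to Eµ-TCL1 spleens, 0 of 1085 genes (0%) passed with edgeR, 31 had an unadjusted p under 0.05, and DESeq2 called 1. Of the identity list 20 genes were tested, with a median log2 difference of -0.03 beside -0.05 over all genes. Irf8 differed by -0.21 ± 0.57 and Ccr9 by 0.40 ± 0.67 on the log2 scale, where ± is an approximate standard error derived from the test's F. The 10 interferon-stimulated genes tested had a median of -1.39, and 2 of the 10 had an unadjusted p under 0.05 without passing the adjustment. Ly6a, also known as Sca-1, was one of them (-2.03 ± 0.64, edgeR adjusted p = 0.585). Irf7, which the sensing list holds, differed by -2.67 ± 0.96 (edgeR adjusted p = 0.753). The summed interferon-stimulated level was 5668 CPM in the Eµ-PRMT5 spleen and 9563 and 12134 in the Eµ-TCL1 spleens, and it was 3167, 5930 and 4847 CPM in the B cells of the same libraries. With every library that had a pDC, 5 interferon-stimulated genes were tested, with a median of -0.62 and 0 at an unadjusted p under 0.05. The summed neutrophil list was 58.9 CPM in the pDC of the Eµ-PRMT5 spleen and 302 and 26008 in those of the Eµ-TCL1 spleens, with a median of -7.81 over 8 genes of which 0 passed the adjustment, and its part in the interferon-stimulated values was not tested. Without Eµ-TCL1 spleen 1 the count of genes called was 15 and without spleen 3 it was 3, each then from 1 against 1 library.

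For Eµ-PRMT5/TCL1 relative to Eµ-TCL1 spleens, edgeR called 2 of 1085 genes (0.184%), both lower in Eµ-PRMT5/TCL1 and both neutrophil genes. S100a8 had 4 and 273 UMIs in the Eµ-TCL1 spleens and 0 and 1 in the Eµ-PRMT5/TCL1 spleens (edgeR adjusted p = 0.0146). Of the 273 UMIs, 212 lay in 1 cell. S100a9, its partner, had 5 and 411 UMIs against 0 and 2 (edgeR adjusted p = 0.0146), with 361 of the 411 in 1 cell. The summed neutrophil list was 302 and 26008 CPM in the pDC of Eµ-TCL1 spleens 1 and 3 and 0 and 270 in Eµ-PRMT5/TCL1 spleens 1 and 2, against 4424, 2052, 407 and 4436 CPM in the B cells. These genes passed the expression filter mainly through Eµ-TCL1 spleen 3, the library of the 2 cells. Without that library 1 gene of 1440 was called. Without Eµ-TCL1 spleen 1 the count was 16, without Eµ-PRMT5/TCL1 spleen 1 it was 0, without Eµ-PRMT5/TCL1 spleen 2 it was 8, and DESeq2 called 1. Without Eµ-PRMT5 spleen 1, which as a group of its own also sets the expression filter, 711 genes were tested in place of 1085. Of these, 0 were called by edgeR and 26 had an unadjusted p under 0.05. The change of filter and the change of fit cannot be told apart in this count.

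Identity genes of the same comparison did not pass. The 20 tested had a median of -0.42 beside -0.01 over all genes. Klk1 came closest, with 116 and 834 CPM in the Eµ-TCL1 spleens and 91.5 and 0 CPM in the Eµ-PRMT5/TCL1 spleens (edgeR adjusted p = 0.163). In Eµ-TCL1 spleen 1 its 5 UMIs all lay in a single cell. In Eµ-TCL1 spleen 3 a single cell held 21 of its UMIs, beside cells with 8 and 6. Tcf4 and Irf8 belong to a transcription factor list of 8 tested genes whose median was -0.62, and Irf8 differed by -0.61 ± 0.47. In simulated counts with the depth of this comparison, every changed gene was raised in the Eµ-PRMT5/TCL1 spleens. Of these, 93 of 100 raised 8-fold and 57 of 100 raised 4-fold were called, together with 11 of 885 unchanged genes. Many smaller increases would thus not be detected at this depth, and decreases were not simulated.

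For Eµ-PRMT5/TCL1 relative to Eµ-PRMT5 spleens, edgeR called 1 of 1085 genes (0.0922%), the macrophage lysozyme gene Lyz2. It had 247 UMIs in Eµ-PRMT5 spleen 1, all in 1 cell of that lone spleen, and 0 and 1 UMIs in the Eµ-PRMT5/TCL1 spleens (edgeR adjusted p = 0.0272). DESeq2 called 0, with 4 genes at an unadjusted p under 0.05, and without Eµ-PRMT5/TCL1 spleen 1 edgeR called 0 of 1407. Lyz2 passed the expression filter through the libraries where it was high. These were Eµ-PRMT5 spleen 1 and Eµ-TCL1 spleen 3, the latter with 33 UMIs, 32 of them in 1 cell. The call therefore cannot tell genotype from 1 cell of 1 library. The summed monocyte and macrophage list was 3027 CPM in the pDC of Eµ-PRMT5 spleen 1 and 457 and 446 in the Eµ-PRMT5/TCL1 spleens, with C1qa, C1qb and C1qc at 0 UMIs in all 70 cells. The identity list's 20 genes had a median of -0.36 beside 0.01 over all genes.

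With every library that had at least 1 pDC, more mice entered but fewer genes. In each of the 3 spleen comparisons edgeR then called 0 of 463 genes (0%), with 5, 13 and 9 at an unadjusted p under 0.05. S100a8, S100a9 and Lyz2, called above, were not among the 463. Of the neutrophil list and of the monocyte and macrophage list, 0 genes were tested, so these counts say nothing on those calls. Between Eµ-PRMT5/TCL1 and Eµ-TCL1 lymph nodes, 2 against 2 libraries, 0 of 311 genes (0%) were called and 16 had an unadjusted p under 0.05. Between node and spleen of the same mice, 0 of 350 genes (0%) were called and 12 had an unadjusted p under 0.05. DESeq2 was not run on these sets.

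Whether genotype moved a gene differently in pDC than in B cells of the same spleens was tested with an interaction term over 11920 genes. It called 24 genes between Eµ-PRMT5 and Eµ-TCL1 (0.201%), 12 between Eµ-PRMT5/TCL1 and Eµ-TCL1 (0.101%) and 23 between Eµ-PRMT5/TCL1 and Eµ-PRMT5 (0.193%). DESeq2 called 5, 0 and 19 in place of these, and the second set then had 104 genes at an unadjusted p under 0.05. In the second set, 9 of 12 genes had over 80% of the UMIs of their top library in 1 cell and 8 of 12 belonged to the neutrophil or monocyte lists, among them Elane, Mpo and Retnlg. In the first set and the third, 5 of 24 and 5 of 23 rested on 1 cell in this way, and all 3 sets share libraries. The second set fell to 6 genes without Eµ-TCL1 spleen 3 and to 2 without Eµ-PRMT5/TCL1 spleen 2, and the third to 5 without the latter. Some calls outside the 80% rule also rested on few pDC UMIs. F11r, in the first set and the third, had 4 in Eµ-PRMT5 spleen 1 and 0 in the other spleens. Zbtb32, in the third, had 3 in that spleen and 0 in the others. With every spleen that had at least 1 pDC, the same term over 10253 genes called 36 (0.351%), 8 (0.078%) and 9 (0.0878%) in the 3 comparisons. Between the genotypes of the lymph nodes it called 3 of 9803 (0.0306%).

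H1f0 ranked first by p in the first set of interaction calls (8.30 ± 1.16). It had 17 pDC UMIs in the Eµ-PRMT5 spleen, 0 and 1 in the Eµ-TCL1 spleens and 0 and 20 in the Eµ-PRMT5/TCL1 spleens. Its B-cell level was 12.8 CPM, then 338 and 163, then 33.1 and 116. It was also the 1 higher gene of the second set (5.45 ± 1.17), and 15 of the 20 UMIs lay in 1 cell. For S100a6 the B cells differed more between libraries than the pDC did. S100a6, a calcium-binding protein, had 1455 CPM in the pDC of the Eµ-PRMT5 spleen, where 86 of its 173 UMIs lay in 1 cell, 861 and 954 in the Eµ-TCL1 spleens and 1067 and 973 in the Eµ-PRMT5/TCL1 spleens. In the B cells of the same libraries it had 109, then 926 and 268, then 1662 and 1457 CPM. The lone Eµ-PRMT5 spleen is assumed here too to vary like the other groups. The interaction of S100a6 was 3.34 ± 0.76 between Eµ-PRMT5 and Eµ-TCL1 (edgeR adjusted p = 0.00784) and -4.59 ± 0.77 between Eµ-PRMT5/TCL1 and Eµ-PRMT5 (edgeR adjusted p = 6.99e-06). Slpi, a secreted inhibitor of neutrophil proteases, had 820 CPM in the B cells of the Eµ-PRMT5 spleen and 2.91 to 66.4 in the other 4. In pDC it had 75.7 CPM in the Eµ-PRMT5 spleen and 81.1 to 524 in the others. The 524 CPM, in Eµ-TCL1 spleen 3, came from 22 UMIs, 20 of them in 1 cell. In the Eµ-PRMT5 spleen 7 of its 9 UMIs lay in 1 cell.

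The members of the pDC identity list called here were Lair1, Upb1 and Dnajc7. With at least 1 pDC a library, 0 of the 27 identity genes tested were called in any of the 3 spleen comparisons, so none of these calls held when more mice entered. Lair1 had 530 CPM in the pDC of the Eµ-PRMT5 spleen, 209 and 286 in the Eµ-TCL1 spleens and 274 and 108 in the Eµ-PRMT5/TCL1 spleens, with 0.743 to 7.15 CPM in B cells. Its interaction was 3.74 ± 0.94 between Eµ-PRMT5 and Eµ-TCL1 (edgeR adjusted p = 0.0345) and -4.97 ± 0.94 between Eµ-PRMT5/TCL1 and Eµ-PRMT5 (edgeR adjusted p = 0.000212). Upb1, an enzyme of pyrimidine breakdown, had 168 CPM in the pDC of the Eµ-PRMT5 spleen and 0 to 116 in the others, and its B-cell level was 0.661 CPM in the Eµ-PRMT5 spleen and 6.59 to 50.1 in the others. Dnajc7, a co-chaperone, was called between Eµ-PRMT5/TCL1 and Eµ-PRMT5 (-3.11 ± 0.76, edgeR adjusted p = 0.0260), with 589 CPM in pDC of the Eµ-PRMT5 spleen against 305 and 297, and 162 CPM in its B cells against 552 and 663. Mpeg1, the pore-forming perforin-2, was called in the same comparison, with 723 CPM in pDC against 762 and 216, and 5.78 CPM in B cells against 39.3 and 43.9. Each of these rests on 1 Eµ-PRMT5 spleen with 13 pDC.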

How the data were processed

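The authors deposited 10x Genomics 3′ v2 matrices of raw UMI counts per gene and barcode for each library, aligned to GRCm38. The submitters' processing notes name Cell Ranger 2.0.1 and Seurat 2.2.1, while the matrix headers give Cell Ranger 3.1.0. The matrices hold all barcodes, so the limits of 1500 UMIs, 200 genes and 10% mitochondrial UMIs were applied here, and no other cell filter was used. Total UMIs per library were 9348094 to 72440894. Libraries were grouped by the labels' genotype and tissue, and tissues of a mouse were paired by the mouse number in the titles. Each library of a group came from a different mouse.

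Shares were compared over libraries by exact permutation tests with Benjamini-Hochberg adjustment over 5 comparisons. Counts summed over the pDC of a library were tested with edgeR 4.0.16 (TMM factors, filterByExpr, quasi-likelihood test, one fit over the spleens with at least 5 pDC), in R 4.3.3, with DESeq2 1.42.0 as an alternative, and the method was checked on simulated counts. The interaction fit held a term for each library. The error printed after ± with an edgeR log2 difference or interaction is its absolute value divided by the square root of the quasi-likelihood F. It is not a fitted standard error. For pDC against B cells, counts were scaled to CPM, 5 CPM were added before log2, and genes with a mean of at least 20 CPM in either class were used. Doublets were scored with Scrublet in scanpy 1.11.5. Promoters are RefSeq entries of GRCm38.p6.

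The genes named are those of the gate and of the lists, by role, and some of the called genes, which were not taken strictly by rank of p. Other genes come from the 15 highest and 10 lowest log2 ratios of pDC to B cells among genes with at least 100 CPM in either class. Immunoglobulin, T-cell receptor, mitochondrial, haemoglobin and predicted genes were left out of these rankings. The gate, the gene lists and the tests were chosen with earlier results of these data known. With at least 5 pDC a library, the lymph node comparison and the comparison of tissues could not be fitted, since 1 node reached that number, so the sets with at least 1 pDC stand in for them.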

Additional observations from a re-analysis of the deposited data

Results flagged for a closer look

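The share of pDC among kept barcodes was far from the rest of its group in 2 libraries. Eµ-PRMT5 spleen 1 had 0.280%, and the other 4 Eµ-PRMT5 spleens had 0 to 0.0386%. Eµ-PRMT5/TCL1 lymph node 2 had 0.406%, and the other 3 nodes of that group had 0 to 0.0353%. Among barcodes with at most 1 Cd79 UMI and no Cd3 UMI, Eµ-PRMT5/TCL1 spleen 1 had 4.63% pDC, where the other 3 had 0.217 to 0.502%, and Eµ-PRMT5/TCL1 node 2 had 13.3%, where the other 3 had 0 to 0.489%. These are 4 flags over 8 group and share combinations, each by the gap of the most extreme library relative to the group's range. The limits flag about 1 in 20 groups of normally distributed values, a rate that need not hold for shares from counts near 0. Both shares use the same pDC counts, so the number of flags is not set against chance. Eµ-PRMT5/TCL1 spleen 1 and node 2 come from the same mouse.

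The difference between genotype groups was not the same in pDC and B cells, by the interaction test, for 24 genes for Eµ-PRMT5 relative to Eµ-TCL1 spleens, 12 for Eµ-PRMT5/TCL1 relative to Eµ-TCL1 spleens and 23 for Eµ-PRMT5/TCL1 relative to Eµ-PRMT5 spleens. DESeq2 called 5, 0 and 19 in their place. The Eµ-PRMT5 arm of the 24 and the 23 is 1 spleen with 13 pDC, assumed to vary like the other groups, so genotype and library cannot be told apart there. Of the 12, 9 had over 80% of the UMIs of their top library in 1 cell.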

How the results depend on the processing

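Some alternatives for the pDC share were too small to pass 0.05, since the smallest p they allow is 0.125 for spleens and 0.25 for nodes with the replicate block, and 0.0667 or 0.1 for nodes with 1 library left out. In the others no difference passed. Over all alternatives the exact permutation p ran from 0.286 to 0.982 for Eµ-PRMT5 relative to Eµ-TCL1 spleens, 0.571 to 0.943 for Eµ-PRMT5/TCL1 relative to Eµ-TCL1 spleens, 0.2 to 1 for Eµ-PRMT5/TCL1 relative to Eµ-PRMT5 spleens, 0.343 to 1 between nodes and 0.156 to 0.969 between tissues. The sign was not stable. For Eµ-PRMT5/TCL1 relative to Eµ-PRMT5 spleens it turned to 0.772 points of barcodes within the Cd79 and Cd3 limits, 0.0190 with Siglech at 1 UMI or more, 4.8e-05 from 500 UMIs, 0.00431 without the top Scrublet scores and 0.0206 without the Cd79 and Cd3 limits. For Eµ-PRMT5 relative to Eµ-TCL1 spleens it turned to -0.0128 with Siglech at 1 or more and -0.00936 without the limits, and for Eµ-PRMT5/TCL1 relative to Eµ-TCL1 spleens to -0.00831 with Siglech at 3 or more and -0.00932 on barcodes thinned to 1500 UMIs. Leaving out 1 library or mouse gave -0.0463 to 0.0240 (Eµ-PRMT5 against Eµ-TCL1), -0.0244 to 0.0239 (Eµ-PRMT5/TCL1 against Eµ-TCL1), -0.0302 to 0.0521 (against Eµ-PRMT5), -0.0195 to 0.116 (nodes) and -0.0358 to 0.0448 (tissues). With the replicate number as a pair (replicate block) the share differences were 0.0195, 0.00574, -0.0138 and 0.116 points for the 4 genotype comparisons in that order, without the pairing by mouse (no replicate block) the difference between tissues was 0.0153 (exact permutation p = 0.929). The last alternatives, on top Scrublet scores, the Cd79 and Cd3 limits and libraries with at least 1 pDC (below also combined with the block or without Eµ-PRMT5 spleen 1), were chosen after seeing the data. The numbers mark no shared batch in the labels.

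Counts of genes called in pDC were small and moved with most settings. S100a8, S100a9 and Lyz2 were not among the genes tested with at least 1 pDC a library, so a count of 0 there says nothing on them. For Eµ-PRMT5 relative to Eµ-TCL1 spleens, in place of 0, there were 1 with library sizes only, 1 with DESeq2, 16 without the expression filter, 6 without the top Scrublet scores, 2 with Siglech at 3 or more, 3 with log2 Xist as a covariate, and 3 to 15 leaving out 1 library, where a lone library is assumed to vary like the other groups. For Eµ-PRMT5/TCL1 relative to Eµ-TCL1 spleens, in place of 2, there were 6, 1, 15, 8 and 1 in that order (without the Siglech setting), 0 with at least 1 pDC a library and 0 to 16 leaving out 1 library. For Eµ-PRMT5/TCL1 relative to Eµ-PRMT5 spleens, in place of 1, there were 0 with DESeq2, 4 without the filter, 0 without the top Scrublet scores, 0 with at least 1 pDC a library and 0 to 1 leaving out 1 library. Genes with an effect that differed from B cells numbered 15 with library sizes only, 5 with DESeq2 and 13 without the top Scrublet scores in the first comparison, in place of 24 (16 to 23 leaving out 1 library), 0 with DESeq2 in the second, in place of 12 (104 at an unadjusted p under 0.05; 2 to 15), and 9 with at least 1 pDC a library in the third, in place of 23 (5 to 25). With at least 1 pDC a library and without Eµ-PRMT5 spleen 1 they numbered 16, 5 and 7, and with that number of pDC the genes called in pDC were 0 in all 3 comparisons, both without that spleen and with the replicate block. With at least 5 pDC, leaving out that spleen also changed the expression filter. Leaving it out gave 0 of 711 genes tested in pDC in the second comparison, and 12 that differed from B cells. Genes higher in pDC than in B cells numbered 266 in place of 791 when 16 libraries entered, some with 1 pDC each. The cause of these changes was not tested. With at least 5 pDC a library, gene fits with the replicate number as a block and comparisons of Eµ-PRMT5 spleens without spleen 1 were not run, and neither were fits with at least 10 pDC, since too few libraries remained. The 70 cells held 563046 UMIs, 7 libraries had a single pDC, and 1 Eµ-PRMT5 spleen entered the main gene fits.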

Other observations

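Barcodes that met the Siglech and Bst2 limits but failed the Cd79 or Cd3 limit numbered 29, beside the 70 that passed. Of these, 19 failed the Cd79 limit and 17 the Cd3 limit, and some failed both. They were found in the spleens of all 3 genotypes and in the nodes of both genotypes sampled, and no test was made on them.

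Of the 70 pDC, 11 held more than 2 times the median UMIs of the kept barcodes of their library. Dntt was found in 11 of the 21 pDC of the Eµ-PRMT5/TCL1 lymph nodes, 2 of the 4 of the Eµ-TCL1 nodes, 4 of 17 in Eµ-PRMT5, 5 of 15 in Eµ-TCL1 and 3 of 13 in Eµ-PRMT5/TCL1 spleens. Cd8a was found in 15, 1, 4, 2 and 2 cells of the same groups. These are cells and not replicates, and 19 of the 21 come from 1 node.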
